A study of Mus musculus with 12 samples.

Results

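The genes described here are 10 transcription factor genes of the glial lineage, 8 of the Sox family (Sox2, Sox4, Sox5, Sox6, Sox8, Sox9, Sox10 and Sox11) and 2 of the homeobox family (Nkx2-2 and Nkx6-2). Every array feature annotated with 1 of these symbols was taken, which gave 27 of the 41230 measured features and 10 of the 19087 named genes. A single feature was found for 4 genes (Sox2, Sox4, Nkx2-2 and Nkx6-2), while Sox8 and Sox10 had 2 each, Sox5 and Sox9 had 4, Sox6 had 5 and Sox11 had 6. All 27 features were measured on all 12 arrays.

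The cells were Oli-neu, a mouse oligodendroglial line, stably expressing PLP-EGFP, a fluorescent fusion of a myelin protein, in treated and untreated cultures alike. The first experiment compared cells after 16 h in conditioned neuronal medium, taken from cultures enriched in neurons, with untreated cultures grown in parallel. The second did the same for the small molecule Y27632, also given for 16 h. The channel labels speak of neurons in place of conditioned medium and write the compound as Y27631, and the design text places neurons in both arms of the second experiment. The methods of the study are followed here. Each experiment had 6 arrays carrying both colours, with treated RNA in Cy3 on 3 of them and in Cy5 on the other 3. The submitters call the arrays of the first experiment technical replicates, and no source used here ties an array to a separate culture. The p-values therefore reflect only how far these arrays scatter, and that scatter can be of technical origin.

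The values are log ratios scaled to a standard deviation (SD) of 1 within every array, and they are given here in these SD units, as treated over untreated. They are neither fold changes nor expression levels, so it cannot be read from them whether a gene was expressed at all, nor could the labelled cell type be checked against the level of its markers. In a bulk culture, fewer cells of a type and less RNA per cell cannot be told apart. The signs of the file were reversed, because Tmem10, the gene described in the study as induced by both treatments, was otherwise negative. With this sign, 1 of its features was above 0 on all 12 arrays and the other on 11. Over all features, r between arrays labelled the same way round was 0.859 to 0.890 in the first experiment and 0.731 to 0.809 in the second. Between arrays labelled in opposite ways it was 0.249 to 0.296 and -0.262 to -0.120. Each mean below is over both orientations, and the orientations are given apart where they differ.

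Sox proteins bind DNA through a high mobility group box and work in subgroups of close relatives. Sox10, Sox8 and Sox9 form the SoxE group. Sox9 takes part in the step from neural stem cell to glia, and Sox10 drives myelin genes together with Myrf, with Sox8 as a weaker partner. The SoxD proteins Sox5 and Sox6 hold precursors back from early differentiation. Sox4 and Sox11 of the SoxC group are typical of immature neural cells, and Sox11 declines as oligodendrocyte precursors mature. Sox2 keeps precursors dividing and responsive. Nkx2-2 promotes the onset of oligodendrocyte differentiation, in part by repressing Pdgfra, and Nkx6-2 is found in myelinating oligodendrocytes.

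In conditioned neuronal medium Sox8 rose at both of its features, by 2.66 and 2.61 SD units, and Sox10 and Sox6 rose at 1 feature each, by 1.44 and 1.42. With Y27632 the pattern was another one for Sox8, Sox11 and Sox2. Sox11 fell at 4 of its 6 features, to between -1.53 and -1.07, and Sox2 rose by 1.08. Sox10 rose at the same feature as before, by 1.82. Sox6 rose at 2 features other than the one before, by 1.05 and 1.05. Sox8 stood at -0.034 and -0.35 with Y27632, and neither feature passed. A feature was called here when its adjusted p from limma was under 0.05 and its mean lay at least 1 SD unit from 0. Of the members, 4 of the 27 features were called higher in conditioned neuronal medium, against 6.83% of all features, and 0 lower, against 5.57%. With Y27632 4 were called higher, against 3.94% of all features, and 4 lower, against 4.13%. The adjusted p alone was passed by 19 of the 27 in conditioned neuronal medium, 11 upwards and 8 downwards, where 60.5% of all features passed, and by 17 with Y27632, 8 upwards and 9 downwards, where 36.9% passed. These directions are those of the mean over both orientations. For some of these features, Nkx6-2 in conditioned neuronal medium among them, the orientations had opposite signs. The median of the 27 features was 0.077 in conditioned neuronal medium and -0.21 with Y27632, beside -0.055 and -0.011 for all features.

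**Figure D1:**
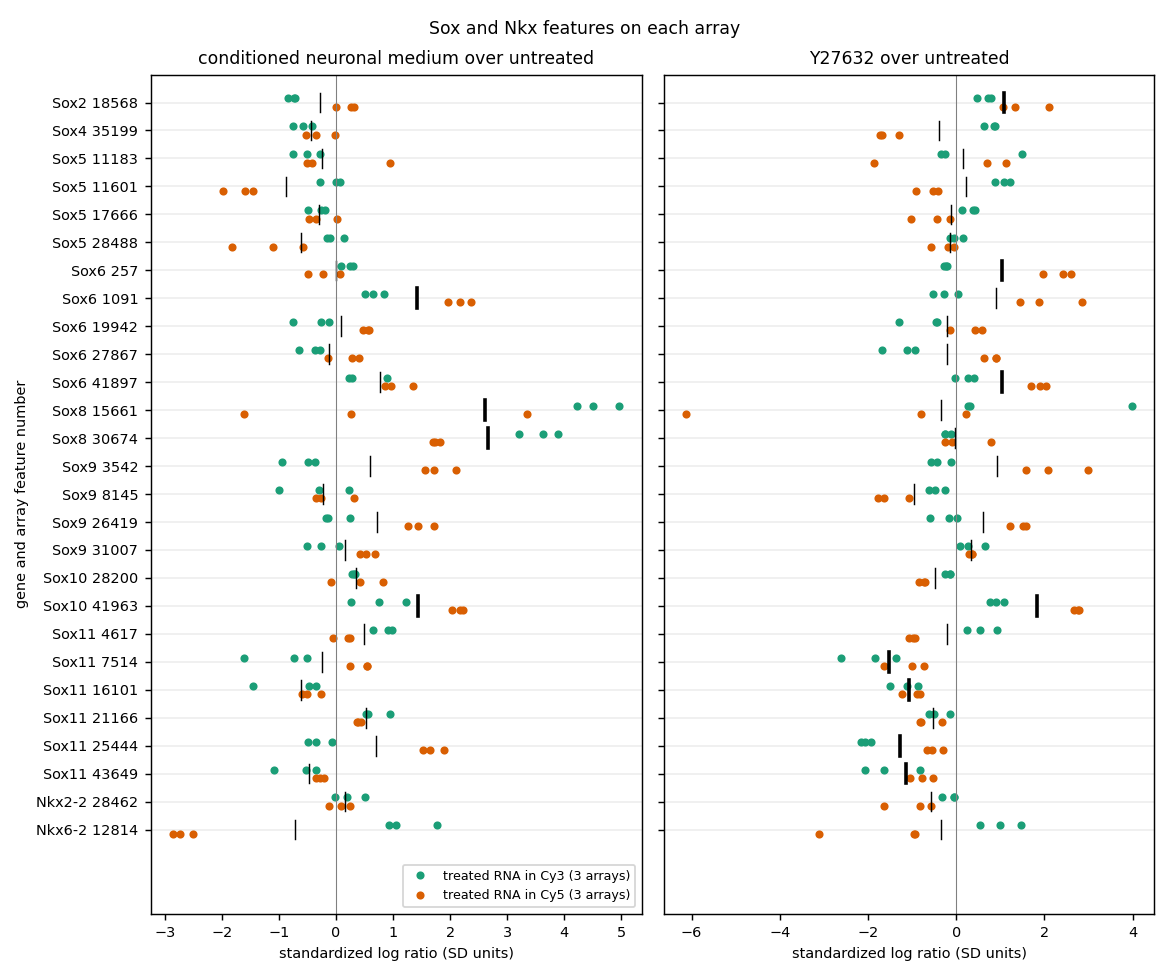
Standardized log ratio (SD units, horizontal axis) of the 27 features on each of 6 arrays per experiment, with conditioned neuronal medium on the left and Y27632 on the right. Green points are arrays with treated RNA in Cy3, orange points those with it in Cy5, and the bar is the mean of 6, drawn thick for the 4 and 8 called features. The means of both Sox8 features lie at about 2.6 on the left panel and at -0.034 and -0.35 on the right, with single arrays of 15661 spread from -6.13 to 3.99 there, and 5 of 6 Sox11 features lie below 0 on every array of the right panel.

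The stretches upstream of the start sites of Sox8 and Sox11 are shown because Sox8 held the feature furthest from 0 in conditioned neuronal medium and Sox11 the most called features with Y27632. They are the 250 bases before the annotated start, 5′ to 3′ on the gene's strand, from RefSeq (build GRCm38.p6), where 8 of the 10 genes had an entry. Capitals mark the GC box GGGCGG and the E-box CANNTG, where N is any base, both searched on both strands.
Sox8, chr17:25570687-25570936, minus strand: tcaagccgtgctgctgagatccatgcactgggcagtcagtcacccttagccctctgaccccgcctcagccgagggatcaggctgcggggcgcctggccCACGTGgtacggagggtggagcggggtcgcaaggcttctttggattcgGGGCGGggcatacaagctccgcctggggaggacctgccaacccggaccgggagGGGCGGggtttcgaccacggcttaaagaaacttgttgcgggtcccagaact
Sox11, chr12:27342719-27342968, minus strand: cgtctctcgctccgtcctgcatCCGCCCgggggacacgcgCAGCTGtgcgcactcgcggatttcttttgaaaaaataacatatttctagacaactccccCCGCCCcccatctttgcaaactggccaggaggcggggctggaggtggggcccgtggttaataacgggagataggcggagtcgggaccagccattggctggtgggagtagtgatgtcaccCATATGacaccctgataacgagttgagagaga
Sox8 has 2 GC boxes and 1 E-box in this window and Sox11 has 2 of each. Among 32851 promoter windows of this length 32.7% hold the GC box and 66.2% the E-box, so neither motif is rare. The Sox core letters ACAAAG and ACAATG, found in 16.5% and 10.7% of windows, were in neither sequence. These matches describe letters and were not tested as binding sites.

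Among the SoxE genes, feature 30674 of Sox8 lay at 1.70 on the lowest array in conditioned neuronal medium, at 2.52 at the median and at 3.89 on the highest, with a mean of 2.66 ± 1.02 (SD, n = 6 arrays, adjusted p = 4.4e-08 from limma). All 6 arrays were above 0, and the 2 dye orientations did not overlap, at 3.57 with treated RNA in Cy3 and 1.75 in Cy5. The second Sox8 feature, 15661, had nearly the same mean, 2.61 ± 2.67 (adjusted p = 0.0012), but a far wider spread. It stood between 4.23 and 4.97 on the arrays with treated RNA in Cy3, whereas those in Cy5 gave 3.35, 0.25 and -1.62. Without a dye term in the model this second call was lost (adjusted p = 0.069), and on the Cy5 arrays alone the mean was 0.66 (adjusted p = 0.477). Both means lay at percentile 99.3 of all features. With Y27632 feature 30674 ranged from -0.26 to 0.78 around a median of -0.18, and 15661 from -6.13 to 3.99, the widest range of any member. The difference between the treatments passed for both features of Sox8, at 2.70 for 30674 (adjusted p = 9.4e-08 from limma over 12 arrays, 95% interval 2.30 to 3.09) and 2.97 for 15661 (adjusted p = 0.039, 95% interval 0.63 to 5.31). Here and below such a difference is conditioned neuronal medium minus Y27632, and an SD unit need not be of the same size in both experiments. Over all features 46.3% passed this test, and of the 27 features 13 passed, 10 with the higher value in conditioned neuronal medium.

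Sox10 was split between its features, although both carry the same transcript record in the annotation. Feature 41963 lay between 0.26 and 2.23 in conditioned neuronal medium, with a median of 1.63, and between 0.76 and 2.77 with Y27632, with a median of 1.87. It was above 0 on all 12 arrays, and its means were 1.44 ± 0.83 (SD, n = 6 arrays, adjusted p = 6.5e-06 from limma) and 1.82 ± 1.01 (adjusted p = 8.9e-06). On average it was in both experiments higher with treated RNA in Cy5 (2.14 and 2.74) than in Cy3 (0.74 and 0.91), so that the mean of the Cy3 arrays alone was under the size limit. Feature 28200 had a mean of 0.34 in conditioned neuronal medium, where its arrays ran from -0.087 to 0.82. With Y27632 its mean was -0.47 (adjusted p = 0.005 from limma), and all 6 arrays lay below 0, from -0.84 to -0.14. Its difference between the treatments passed (0.82, adjusted p = 0.0005), while that of 41963 did not (-0.38, 95% interval -0.72 to -0.041 before adjustment, adjusted p = 0.063).

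None of the 4 Sox9 features was called in either experiment. Their means ran in conditioned neuronal medium from -0.23 to 0.72, and with Y27632 from -0.97 to 0.92. The lowest was feature 8145 with Y27632, which was below 0 on all 6 arrays (-1.77 to -0.25, adjusted p = 0.00047) and missed the size limit narrowly. It was the single Sox9 feature whose difference between the treatments passed (0.74, adjusted p = 0.012). Feature 31007, with the same transcript record, went the other way with Y27632. It was above 0 on all 6 arrays there (0.088 to 0.65, mean 0.33, adjusted p = 0.044 from limma), with means of 0.33 in both orientations. In conditioned neuronal medium it averaged 0.15 and did not pass. Features 3542 and 26419 lay at 1.23 SD units or above on all Cy5 arrays of both experiments and close to or below 0 on most Cy3 arrays. Their means thus average unlike orientations, at 0.59 and 0.92 for 3542 and at 0.72 and 0.60 for 26419 in the first and second experiment.

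Of the SoxD genes, Sox6 rose at feature 1091 in conditioned neuronal medium, where the arrays lay between 0.51 and 2.37 with a median of 1.40 (mean 1.42 ± 0.84, SD, n = 6 arrays, adjusted p = 1.2e-06 from limma). All 6 arrays were above 0, but the dye orientations did not overlap, with means of 0.67 in Cy3 and 2.17 in Cy5. On the Cy3 arrays alone the mean was under the size limit. Feature 41897 was also above 0 on all 6 arrays (0.22 to 1.36, mean 0.76, adjusted p = 0.00031) but under the size limit, and the other 3 Sox6 features stood at -0.13, -0.0061 and 0.077 and did not pass. With Y27632 the features called higher were 41897 (1.05 ± 0.93, adjusted p = 0.00016) and 257 (1.05 ± 1.42, adjusted p = 0.00019). For 257 the call came from the Cy5 arrays, which lay at 1.97 or above, while all 3 Cy3 arrays lay below 0, with a mean of -0.24. For 41897 the Cy5 arrays averaged 1.88 and the Cy3 arrays 0.21, which was under the size limit. Without the dye term neither call with Y27632 was kept (adjusted p = 0.092 for 41897 and 0.239 for 257), and leaving out replicate 5 for 41897 (0.998) or replicate 1 for 257 (0.98) brought the mean just under the size limit. Feature 1091 averaged 0.90 with Y27632 (adjusted p = 0.0046 from limma), just under the size limit, from means of -0.26 in Cy3 and 2.06 in Cy5. Features 19942 and 27867 both stood at -0.22 there and did not pass. Feature 257 was also the only Sox6 feature that differed between the treatments (-1.05, 95% interval -1.36 to -0.74). For 1091 the difference was 0.52 and did not pass (adjusted p = 0.062 from limma). The features of Sox6 that share 1 transcript record, 4 in number, spread over 1.55 SD units in conditioned neuronal medium and over 1.27 with Y27632.
No Sox5 feature was called. All 4 had a mean below 0 in conditioned neuronal medium, from -0.88 to -0.26, and 3 of them passed the adjusted p. The lowest, feature 11601, was near 0 on the Cy3 arrays (mean -0.071) and between -1.98 and -1.46 on the Cy5 arrays. With Y27632 the 4 means lay between -0.15 and 0.22, and none passed the adjusted p. The highest, again feature 11601, came from means of 1.06 in Cy3 and -0.62 in Cy5. For 11601 the difference between the treatments was -1.10 (95% interval -1.42 to -0.78), and for the other 3 it did not pass.

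The SoxC gene Sox11 was called lower with Y27632 at 4 of its 6 features. The mean over its 6 features was -0.96 ± 0.14 (SD, n = 6 arrays), an SD over which unlike dye orientations of single features partly cancel, and it fell just short of the size limit (adjusted p = 6.2e-05 over gene means). At 5 of 6 features all arrays were below 0. Feature 7514 ran from -2.62 to -0.73 with a mean of -1.53 ± 0.67 (adjusted p = 0.00029 from limma). Feature 25444 ran from -2.17 to -0.31 with a mean of -1.28 ± 0.86 (adjusted p = 4.3e-05). Feature 43649 had a mean of -1.15 ± 0.59 (adjusted p = 0.00084) and 16101 a mean of -1.07 ± 0.26 (adjusted p = 0.00023). These 4 features were called, and all 4 were lower in both dye orientations, although on the Cy5 arrays alone only 7514 kept its call, and 16101 lost its call without replicate 6 (-0.99). The fifth, 21166, stood at -0.54 (adjusted p = 0.0081), and the last, 4617, had Cy3 arrays above 0 and Cy5 arrays below 0 and did not pass. The same 6 features went different ways in conditioned neuronal medium, from -0.61 for 16101 to 0.69 for 25444, and none was called. There the orientations had opposite signs for 25444 (-0.30 in Cy3 and 1.69 in Cy5) and for 7514 (-0.96 and 0.45). The mean of the gene was 0.064 ± 0.31 there and did not pass (adjusted p = 0.467 over gene means). The difference between the treatments passed for 5 of the 6 features, from 0.68 for 43649 to 1.97 for 25444, and for 16101 it was 0.46 (adjusted p = 0.074).
Sox4, the relative of Sox11, was not called. Its feature was below 0 on all 6 arrays in conditioned neuronal medium (-0.75 to -0.021, mean -0.45, adjusted p = 0.0026). With Y27632 it averaged -0.39, from 3 Cy3 arrays above 0 and 3 Cy5 arrays between -1.74 and -1.29. The difference between the treatments was -0.054 (95% interval -0.36 to 0.25).

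The SoxB1 gene Sox2 rose with Y27632, its single feature lying at 0.47 on the lowest array, 0.93 at the median and 2.10 on the highest (mean 1.08 ± 0.58, SD, n = 6 arrays, adjusted p = 0.0006 from limma). All 6 arrays were above 0. The mean fell under the size limit without replicate 3 (0.93) and on the Cy3 arrays alone (0.66). Its arrays in conditioned neuronal medium lay between -0.84 and 0.31, with a mean of -0.29 (adjusted p = 0.012 from limma). That mean came from -0.77 in Cy3 and 0.19 in Cy5. The difference between the treatments was -1.37 (95% interval -1.73 to -1.0). Sox2 lies inside the long noncoding gene Sox2ot, whose 3 features, named after their values were seen, stood at 0.45 to 0.74 in conditioned neuronal medium and at 0.073 to 0.37 with Y27632. None of these was called.

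The homeobox genes gave no call. Nkx2-2 stayed between -0.12 and 0.51 in conditioned neuronal medium (mean 0.15, adjusted p = 0.207). With Y27632 all its arrays lay below 0, from -1.63 to -0.053, with a mean of -0.57 (adjusted p = 0.015), and the difference between the treatments passed (0.72, 95% interval 0.33 to 1.11). The feature of Nkx6-2 took opposite signs in the 2 dye orientations. Its arrays in conditioned neuronal medium lay between 0.93 and 1.76 with treated RNA in Cy3 and between -2.86 and -2.51 in Cy5, and with Y27632 between 0.54 and 1.47 and between -3.11 and -0.94. Its means of -0.73 and -0.33 therefore describe neither orientation, although the first passed the adjusted p (0.00051 from limma).

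**Figure D2:**
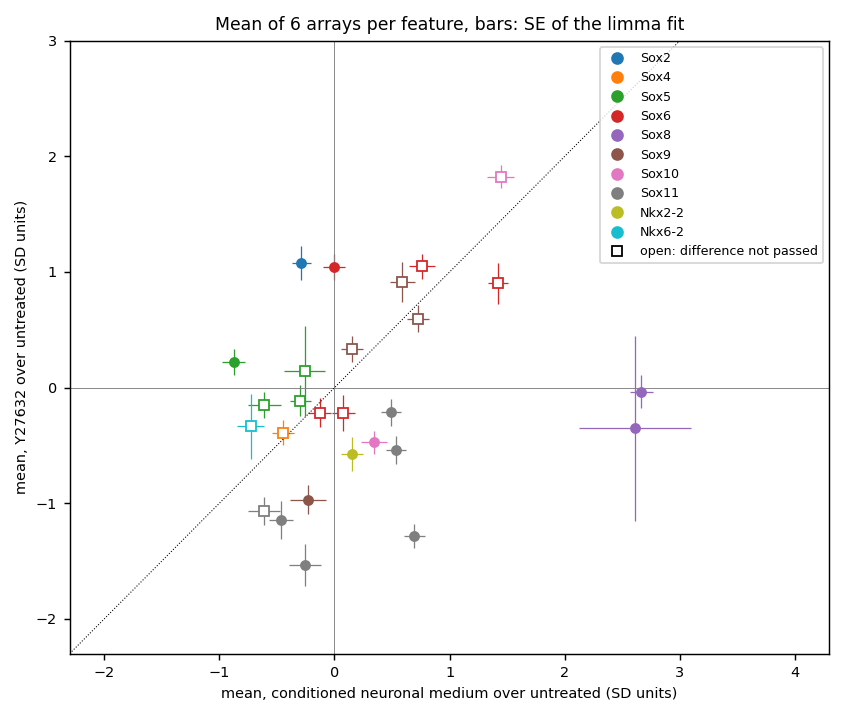
Mean of 6 arrays for each of the 27 features in conditioned neuronal medium (horizontal axis) and with Y27632 (vertical axis), both in SD units, with bars for the SE of the limma fit, colours for genes and a dotted line where both are equal. Filled circles are the 13 features whose difference between the treatments passed; Sox8 lies to the right at about 2.6, and Sox11 lies below the dotted line.

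Opposite signs in the dye orientations were frequent. The mean of the Cy3 arrays and that of the Cy5 arrays had opposite signs for 11 of the 27 features in conditioned neuronal medium and for 14 with Y27632, where 47.5% and 58.5% of all features did. The dye coefficient of the model was larger in size than the treatment mean for 11 and 14 of the 27. All 6 arrays had the same sign for 8 features in conditioned neuronal medium and for 11 with Y27632. These reached the smallest p that the exact sign-flip permutation test allows with 6 arrays (2-sided p = 0.0312 before adjustment). That p follows from the shared sign alone and adds nothing to it. The share of all features with the same sign on all 6 arrays was not counted, so nothing is read from the 8 and 11 about the members. Sox8 feature 30674, Sox10 feature 41963 and Sox6 feature 1091 were among the 8, and Sox2, Sox10 feature 41963 and the 4 called Sox11 features among the 11.

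**Figure D3:**
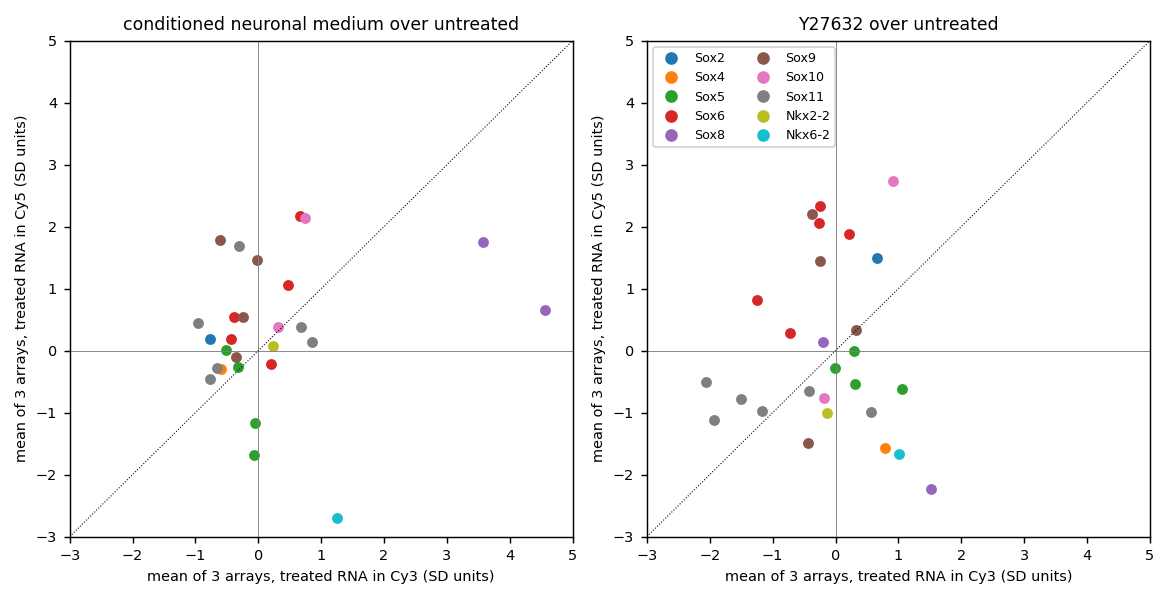
Mean of the 3 arrays with treated RNA in Cy3 (horizontal axis) against the mean of the 3 arrays with it in Cy5 (vertical axis), in SD units, for the 27 features in each experiment, coloured by gene. Points on the dotted line would be equal in both; 11 features on the left and 14 on the right have opposite signs, among them Nkx6-2 in both.

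Other members of both families gave 0 to 3 called features per list and experiment. The shares of all features called higher and lower were 6.83% and 5.57% in the first experiment and 3.94% and 4.13% in the second, and the counts of the lists below stand beside these shares. Of 18 features from 11 other Sox genes, 0 were called in conditioned neuronal medium (limma; their values ran from -0.61 to 0.98), and with Y27632 2 were called higher and 0 lower, both of them features of Sox21, a SoxB2 gene, at 2.0 and 1.29 (11.1% of the list). The first of these lay above every feature of the 10 genes with Y27632. Of 15 features from the 10 measured among 12 other Nkx genes, 1 was higher (6.67%) and 2 were lower (13.3%) in conditioned neuronal medium, Nkx2-6 at 1.01 and Nkx3-2 at -1.12 and -1.08, and 1 was higher with Y27632, Nkx6-3 at 1.17. The medians of these lists lay between -0.28 and -0.090, beside -0.055 and -0.011 for all features.

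Other transcription factors of the oligodendrocyte lineage were called higher more often than all features in conditioned neuronal medium. Of 47 features from 18 of 20 such genes 17 were called higher (36.2%) and 1 lower, with a median of 0.43, and with Y27632 5 were higher (10.6%) and 0 lower, with a median of 0.15. The 17 features came from 9 genes. This list was chosen with earlier results of these data known, so its share is no independent evidence about such factors. Olig1 and Olig2, basic helix-loop-helix factors of the lineage, stood at 5.44 ± 0.24 and 6.36 ± 0.72 in conditioned neuronal medium. Both are listed by the study from these same arrays, so their direction is no independent evidence. The called features also included Chd7, a chromatin remodeller that works with Sox10, at 3.03 ± 0.22 (SD, n = 6 arrays, adjusted p = 1.5e-08 from limma) and Tcf7l2, an effector of Wnt signalling needed for differentiation, at 2.17 ± 0.35. With Y27632 the ETS factor gene Etv5 stood at 2.0 ± 1.75, Olig2 at 1.35 ± 0.17, Chd7 at 1.12 ± 0.78 and the zinc finger gene Myt1 at 1.05 ± 0.42. Each value given for these genes is that of a single feature. In conditioned neuronal medium the other features stood at 1.51 for Olig2, at 1.27 and 0.36 for Chd7 and at 1.73, 1.87 and 2.34 for Tcf7l2. All of these were called except the one at 0.36. With Y27632 the other features were not called, at -0.056 for Olig2, 0.39 for Etv5, and 0.66 and 0.42 for Chd7.
Genes known as direct targets of Sox10 gave 4 called features in each experiment. Of 24 features from 13 of 16 such genes, 1 was called higher (4.17%) and 3 lower (12.5%) in conditioned neuronal medium, with a median of -0.071, and 3 higher (12.5%) and 1 lower (4.17%) with Y27632, with a median of 0.15. Shares of this size rest on 1 to 3 features each, and nothing is read from them about the list. Cnp, which encodes a myelin enzyme, stood at 5.32 and 2.07, whereas feature 43962 of Mbp, a major myelin protein, fell to -1.56 and -1.38. The other 2 Mbp features stood at -1.44, which was called, and -0.56 in conditioned neuronal medium, and at -0.037 and 0.35 with Y27632, where neither passed. Mitf, a pigment cell factor that Sox10 activates in melanocytes, stood in conditioned neuronal medium at -1.19 at its called feature. Its other feature stood at -0.51 there and was not called. Both called features of the pigment enzyme gene Dct stood at 1.12 and 1.01 with Y27632.

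**Figure D4:**
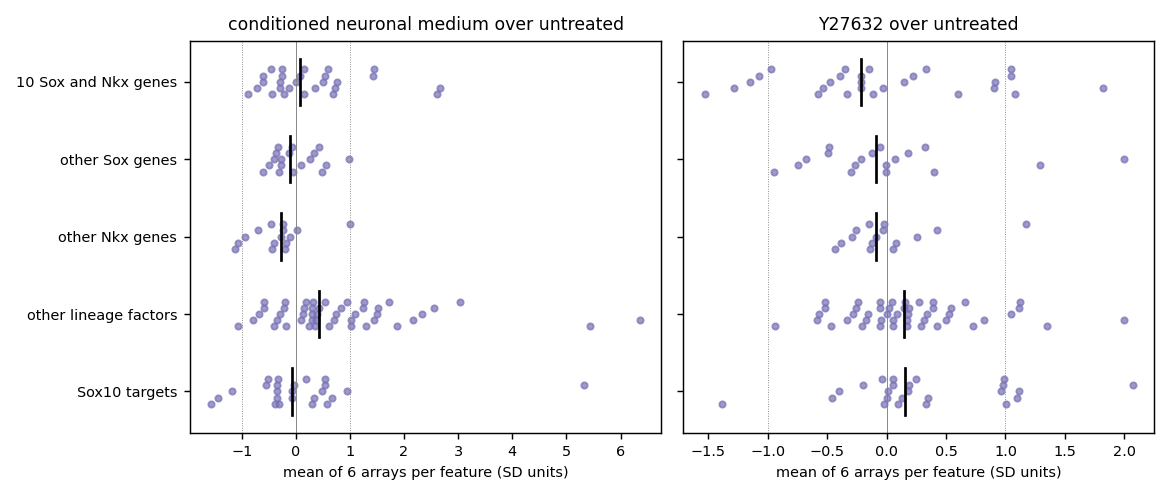
Mean of 6 arrays per feature (SD units) in each experiment for the 10 Sox and Nkx genes and for 4 lists, with the median of each list as a bar and dotted lines at the size limit of 1 in both directions. The other lineage factors reach furthest to the right in conditioned neuronal medium, and the Sox and Nkx genes span -0.88 to 2.66 on the left and -1.53 to 1.82 on the right.

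Some markers of other cell types were called as well, and their part in the Sox and Nkx values was not tested. Of 29 features of 13 neuron markers 9 were higher (31.0%) and 1 lower (3.45%) in conditioned neuronal medium, with array medians from 0.24 to 0.74, and 1 was higher and 3 lower with Y27632, with array medians from -0.49 to 0.17. Of 15 features of 6 astrocyte markers 3 were higher (20.0%) and 4 lower (26.7%) in the first experiment (array medians -0.40 to 0.16) and 3 higher and 0 lower in the second (array medians 0.096 to 0.94). Of 8 features of 5 measured microglia markers 1 was higher and 1 lower in the first (array medians -0.084 to 0.41) and 1 was higher in the second (array medians -0.021 to 0.29), counts too small to set against the shares of all features. Of 17 features of 9 measured oligodendrocyte lineage markers, Sox10 included, 6 were higher and 2 lower in the first (array medians 0.24 to 0.52) and 5 higher and 1 lower in the second (array medians -0.089 to 0.71).

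By root-mean-square difference over the 12 arrays, the named features nearest to Sox8 feature 30674, the member furthest from 0 in conditioned neuronal medium, were those of Apoe (0.48 SD units apart), Cyfip2 (0.58) and the olfactory receptor gene Olfr1411 (0.58). Those nearest to Sox10 feature 41963, the member furthest from 0 with Y27632, were Atat1 (0.33), Cdr1 (0.34) and Stard13 (0.36).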

How the data were processed

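Total RNA of Oli-neu cells was amplified, labelled with Cy3 and Cy5 and hybridised by the authors to Agilent 44K mouse arrays. They extracted intensities, normalized them by loess and replaced saturated features with values of a scan at low gain. The deposited score of a feature is a log ratio between the channels in standardized form, and the base of its logarithm, the scaling and the centring are not given in the sources used here. The table holds 44290 features, of which 41230 were measured on all arrays and 3060 had no value. Background and signal of the features are not known, and the number of arrays limits the precision. Gene symbols came from the platform annotation, updated through gene identifiers; 31700 measured features had 1 gene name, 47 several and 9483 none.

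All signs were reversed. Each experiment was fitted apart with limma 3.58.1 (R 4.3.3) per feature, with an intercept and a coefficient for dye. The Benjamini-Hochberg adjustment ran over all 41230 features. Differences between treatments came from a model of all 12 arrays with a dye term for each experiment. Intervals are 95% intervals of that fit and are not adjusted. The code was tested on simulated data. The p-values rest on the spread within a dye orientation, whereas the SDs also hold the difference between orientations. The alternatives were other centring and scaling, no dye term, each orientation alone, each replicate left out, no moderation, other size limits, gene means and fewer features in the adjustment. All 27 features of the members are given. From each list at most 4 called features with the smallest adjusted p are named, with other features of the same genes beside some of them. The 3 nearest features follow a root-mean-square rule. The members and lists were chosen with earlier results of these data known.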

Additional observations from a re-analysis of the deposited data

Results flagged for a closer look

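Of 54 sets of 6 arrays (27 features in 2 experiments), 5 held 1 array far from the other 5, by a test that chance meets in about 1 of 20 sets. In conditioned neuronal medium, feature 11183 of Sox5 stood at 0.95 on replicate 4, with the nearest other array at -0.29. For Sox11, feature 16101 stood at -1.47 and feature 43649 at -1.08 on replicate 1, with the nearest arrays at -0.59 and -0.53, and feature 21166 stood at 0.94 on replicate 2, with the nearest at 0.57. With Y27632, Sox8 feature 30674 stood at 0.78 on replicate 1, with the nearest at -0.10. None of these 5 sets gave a call.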

How the results depend on the processing

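With conditioned neuronal medium, 4 features were called higher and 0 lower. Leaving out each replicate gave 4 to 4 higher and 0 to 0 lower. Scaling each array by its median absolute deviation added 1 lower call. The Cy5 arrays alone gave 7 higher and 3 lower, the adjusted p alone 11 and 8, a size limit of 2 SD units 2 higher, and gene means 1 gene higher (Sox8). With Y27632, 4 were called higher and 4 lower. Leaving out each replicate gave 3 to 5 higher and 3 to 5 lower. Scaling by the median absolute deviation gave 6 higher and 5 lower, no dye term 2 higher, the Cy3 arrays alone 2 higher, the Cy5 arrays alone 7 higher, the adjusted p alone 8 higher and 9 lower, a size limit of 2 SD units 0 and 0, and gene means 1 gene higher (Sox2) and 0 lower. On the Cy3 arrays alone all 4 features called higher with Y27632 lost the call. The 2 called higher there were other features, Sox5 feature 11601 (1.06) and Nkx6-2 (1.0). The 13 features that differed between the treatments became 8 with a minimum difference of 1 SD unit, and 11 to 15 when each replicate number was left out. For arrays with the same number in the 2 experiments, deviations from the mean of their dye orientation correlated with r from -0.048 to 0.084. Such deviations hold nothing that the arrays of an orientation have in common, so they cannot show whether same-numbered arrays share a source. The fit with replicate number as a block gave 13. On the Cy3 arrays alone Nkx6-2 stood at 1.25 in conditioned neuronal medium and at 1.0 with Y27632, and Sox6 feature 257 at -0.24 with Y27632, each opposite in sign to the mean of both orientations. Single features were refitted under other centring and scaling, no dye term, each orientation alone, no moderation and each replicate left out. Of these values 605 kept their side of the call, 24 became called, 16 lost the call and 3 are those of opposite sign above. A value called in neither fit was counted as kept even where its sign changed. Sox9 feature 3542 in conditioned neuronal medium is such a case, at 0.59 in the main fit and -0.61 on the Cy3 arrays alone. The cause was not tested. Without intensities, dim features could not be filtered.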
